A study of Homo sapiens with 4 samples.

Results

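The intervals described here lie on the long arm of human chromosome 1, between 144.9 and 150 Mb of build hg19, and are called the 1q21 stretch below. They are the 242 intervals whose start falls between these limits, out of 21308 in a list of GATA4-bound intervals and out of 1389 on chromosome 1. The members were chosen by position, with limits drawn where the list was already known to be dense, so the number of intervals is a description of the choice and supports nothing by itself. The list comes from 4 CUT&RUN libraries of PaTu8988S, a long-established human line of pancreatic adenocarcinoma cells, for which the labels name no treatment and no genetic change. Each library was made with 10 ug of the GATA4 antibody MAB2606, and all 4 form 1 group. CUT&RUN releases and sequences the DNA next to an antibody-bound protein by means of a tethered nuclease. The authors deposited 1 list for the 4 libraries, named as their common peaks, with chromosome, start and end and no score, so no spread between libraries could be measured and no test was made. The spread given below is that along the genome. An antibody control was not analysed here, and the read depth is unknown.

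GATA4 is a zinc-finger transcription factor that binds GATA sequences in DNA and acts in the development of heart, stomach, liver and pancreas. In pancreatic cancer it is known, with its paralogue GATA6, for its place in the classical, epithelial expression programme. The band 1q21 is known for segmental duplications, long blocks of sequence present in several nearly identical copies. They carry gene families that expanded in primates, such as NBPF, whose proteins contain Olduvai repeats, and NOTCH2NL, partial copies of the Notch receptor gene NOTCH2 that modulate Notch signalling in cortical progenitors. Sequencing reads from such copies often match more than 1 place.

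The RefSeq gene table of assembly GRCh38.p14 listed 23 NBPF genes and pseudogenes, 21 of them on chromosome 1, and all 4 NOTCH2NL genes on chromosome 1. It likewise placed all 7 PPIAL4 genes, which encode cyclophilin-like proteins, and 2 of 3 entries of GPR89, a family encoding a Golgi pH regulator, on that chromosome. These counts are for the whole chromosome and were not split by arm or band. The deposited list holds neither gene names nor duplication annotation, and the table is of another build than the intervals. No interval was therefore assigned to a gene or to a duplicated block, and the label of a segmental duplication could not be checked against the list. An hg19 sequence was not used here, so the GATA motif content of the intervals was not examined.

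The limits of the stretch fall in stretches without an interval. Just below the lower limit lay the intervals chr1:144880013-144880513 (500 bp wide) and chr1:144881129-144882202 (1073 bp). The first 2 intervals inside were chr1:144930817-144931935 (1118 bp) and chr1:144951911-144952376 (465 bp). The gap over the lower limit was 48.6 kb, and the ground before it was dense as well, with 256 intervals in chr1:142535430-144882202, or 109 per Mb. At the upper limit the last 2 intervals inside were chr1:149875395-149875761 (366 bp) and chr1:149910991-149911900 (909 bp). The next 2 outside were chr1:150208042-150209056 (1014 bp) and chr1:150241138-150241844 (706 bp).

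The 1q21 stretch held 47.5 intervals per Mb, against 5.74 per Mb on chromosome 1 from 150 Mb on (570 intervals) and 2.22 per Mb on the short arm below 121 Mb (269 intervals). These are 8.26 and 21.3 times the densities of the comparison parts. Over 2.05% of the length that intervals span on chromosome 1, the stretch held 17.4% of that chromosome's intervals. Intervals covered 3.81% of the stretch, against 0.353% of the long arm from 150 Mb on and 0.127% of the short arm.

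Windows of 5.1 Mb, the length of the stretch, show how far interval number varied along the comparison parts. The 242 intervals of the stretch compare with 7 to 71 per window (median 24, mean 29.4 ± 17.7 SD) in 19 windows from 150 Mb on. In 23 windows of the short arm there were 0 to 45 intervals (median 10, mean 10.7 ± 9.57 SD). No window of either part, whether tiled from its start or shifted by 2.55 Mb, reached the count of the stretch. Among the windows tiled from the start of each part, the fullest followed the stretch directly, with 71 intervals in the window at 150 to 155.1 Mb and 66 in that at 155.1 to 160.2 Mb. Among the shifted windows the fullest held 92, at 152.55 to 157.65 Mb. The ground between the short arm part and the stretch, with 308 intervals, was in neither part and was not tiled. The dense run just below the lower limit held 256 of them in 2.35 Mb, more than the 242 of the stretch in less length. In shorter bins of equal length, the fullest on chromosome 1 lay there, at 142.5 to 143 Mb with 134 intervals. The next, at 145 to 145.5 Mb in the stretch, held 106.

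**Figure D1:**
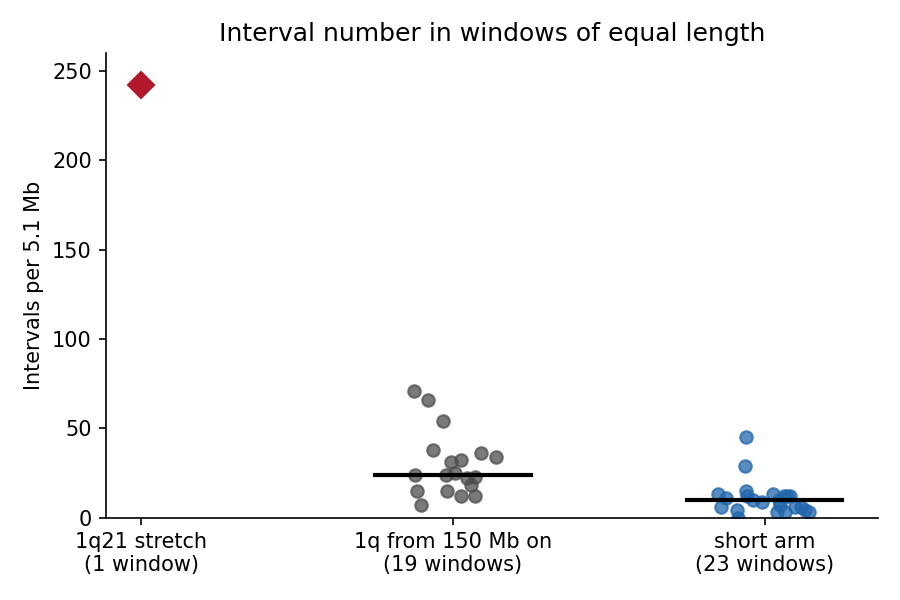
Number of intervals in windows of 5.1 Mb (vertical axis) for the 1q21 stretch (diamond, 242 intervals), chromosome 1 from 150 Mb on (19 windows) and the short arm (23 windows). Each circle is 1 window, spread sideways for legibility, and black lines are medians (24 and 10); the highest circles stand at 71 and 45.

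The members were not spread evenly over the stretch. In 51 bins of 100 kb, the median was 1 interval, 13 bins held none and 27 held 1 to 4. The 8 bins with 10 intervals or more together held 168 members (69.4%). The fullest bin, from 145 to 145.1 Mb, held 43 intervals, and that from 145.2 to 145.3 Mb held 29.

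The stretch can be read as a dense lower end, a sparse middle and a patchy upper part, with bounds set by eye after the counts were seen. The lower end, from 144.9 to 145.4 Mb, held 119 members (49.2%), or 238 per Mb. The middle, from 145.4 to 147.6 Mb, held 22 members (9.09%), or 10.0 per Mb, which lies within the range of the windows beyond 150 Mb. The upper part, from 147.6 to 150 Mb, held 101 members (41.7%), or 42.1 per Mb. The median width was 730 bp in the lower end (quartiles 498 and 1124), 506 bp in the middle (quartiles 428 and 763) and 696 bp in the upper part (quartiles 505 and 951). The middle was thus low in both number and width, and the lower end and upper part were close in width although one had 238 and the other 42.1 intervals per Mb.

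**Figure D2:**
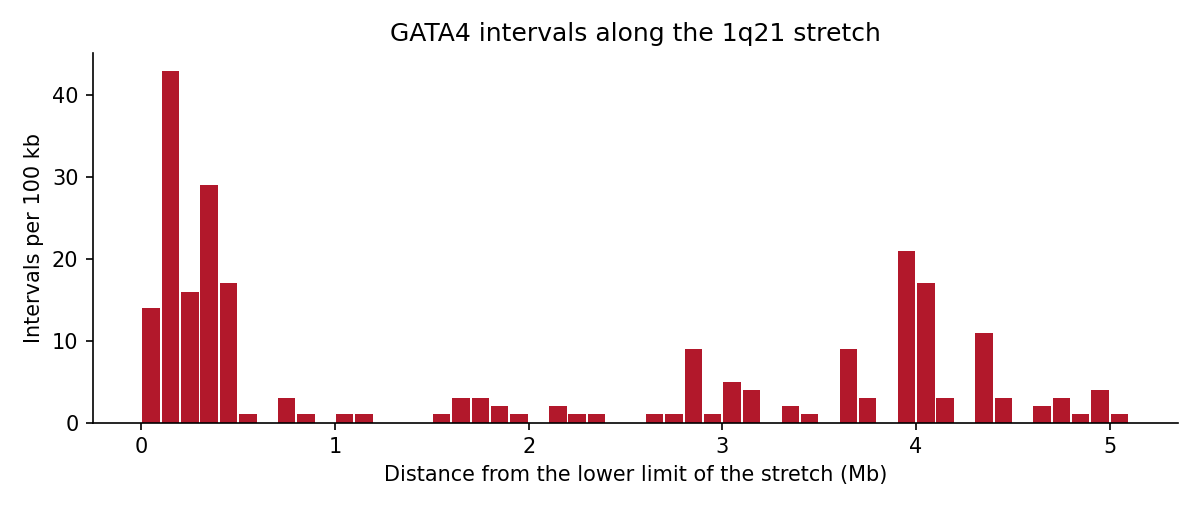
Number of intervals in each of 51 bins of 100 kb (vertical axis) against the distance from the lower limit of the 1q21 stretch in Mb. The first 5 bins hold 14, 43, 16, 29 and 17 intervals, bins between 0.5 and 2.7 Mb hold at most 3, and a further rise to 21 and 17 intervals stands near 4 Mb.

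Neighbouring members lay close together. The median gap between neighbours was 2.08 kb in the stretch (quartiles 0.714 and 6.74 kb), against 75.9 kb from 150 Mb on (quartiles 19.7 and 225 kb) and 150 kb on the short arm (quartiles 11.0 and 512 kb). Over the 22 autosomes and chromosome X the median was 15.5 kb. Of 241 gaps in the stretch, 24 were 100 bp or shorter (9.96%), against 4 of 569 from 150 Mb on (0.703%) and 11 of 268 on the short arm (4.10%). Over the 22 autosomes and chromosome X this share was 4.66%. The shortest gap in the stretch was 4 bp, and 5 of its gaps were 10 bp or shorter, so some neighbours are nearly continuous.

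Long empty ground lay between the dense pieces. Gaps of 100 kb or more numbered 14 and made up 2.80 Mb, or 54.9% of the stretch. The 5 longest were chr1:146036156-146475086 (439 kb), chr1:147244872-147510782 (266 kb), chr1:149315479-149579060 (264 kb), chr1:145739202-145989775 (251 kb) and chr1:148014314-148243786 (229 kb). What sequence lies there was not examined.

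**Figure D3:**
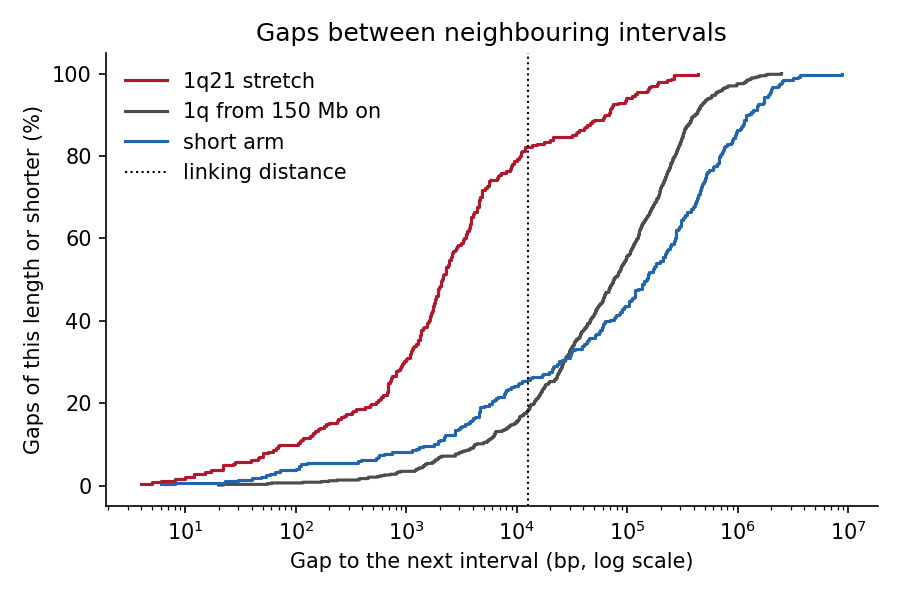
Cumulative percentage of gaps (vertical axis) up to each length in bp (horizontal axis, log scale) for the 1q21 stretch, chromosome 1 from 150 Mb on and the short arm; the dotted line is the linking distance of 12.5 kb. In the stretch 198 of 241 gaps lie at or below that line, and its median of 2.08 kb stands far left of the medians of 75.9 and 150 kb.

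Linking intervals no more than 12.5 kb apart put 206 of the 242 members (85.1%) into 14 clusters of 3 or more, while 24 members (9.92%) had no neighbour within that distance. From 150 Mb on, 56 of 570 intervals (9.82%) were in such clusters and 390 (68.4%) had no neighbour. On the short arm 62 of 269 (23.05%) were in clusters and 173 (64.3%) had no neighbour. Over the 22 autosomes and chromosome X 45.1% were in clusters. The exact 95% binomial (Clopper-Pearson) intervals of the shares in clusters were 80.0 to 89.4% in the stretch, 7.51 to 12.6% from 150 Mb on and 18.2 to 28.5% on the short arm. They treat intervals as independent, which neighbours are not, and cover counting error only. Among the windows of 5.1 Mb with at least 5 intervals, the share reached at most 33.3% from 150 Mb on and 62.1% on the short arm. With windows shifted by 2.55 Mb, 1 short-arm window, from 2.55 to 7.65 Mb with 21 intervals, had 85.7%, slightly above the stretch.

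The largest cluster was chr1:144984028-145086004 and held 55 intervals in 102 kb. Intervals covered 49.2% of it, their median width was 884 bp, and 13 of its gaps were 100 bp or shorter. It was the 17th largest of 1076 clusters of 3 or more on the 22 autosomes and chromosome X, of which the largest held 346. Of the 96 clusters of 20 or more there, the covered share ranged from 12.2 to 59.7% with a median of 28.4%, so this one stood in the upper part of the range.

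The next 4 clusters were less densely covered. In chr1:148843385-148954463 there were 37 intervals, covering 26.0% of 111 kb with a median width of 708 bp. In chr1:145166866-145298878 there were 36 intervals, covering 24.5% of 132 kb with a median of 724 bp. These are near the middle of these covered shares. The cluster at chr1:145312567-145383396 held 17 intervals in 70.8 kb (15.6% covered, median 662 bp), and that at chr1:149274619-149315479 held 12 in 40.9 kb (21.1% covered, median 598 bp). With the largest, these clusters held 157 members (64.9%) and 67.5% of the covered bases in 8.96% of the length of the stretch. The 85 members outside them, which include the smaller clusters, stood at 18.3 per Mb. This is above the averages of 5.74 and 2.22 per Mb of the comparison parts taken with all their clusters. It is not above all single windows. The shifted window at 152.55 to 157.65 Mb, as long as the whole stretch, held 92 intervals, more than these 85. No other window of either part held as many as 85.

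By contrast the largest cluster from 150 Mb on held 6 intervals, at chr1:151944860-151967136. The largest on the short arm held 15, at chr1:16919571-16985961, with a median width of 793 bp, and another at chr1:2588896-2626081 held 12 with a median of 1366 bp. Large clusters of wide intervals are thus also found on the short arm, in smaller number. Chromosome 1 had 8 clusters of 20 or more, of which 3 were in the stretch. The others lay outside the stretch, and neither comparison part held a cluster that large.

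**Figure D4:**
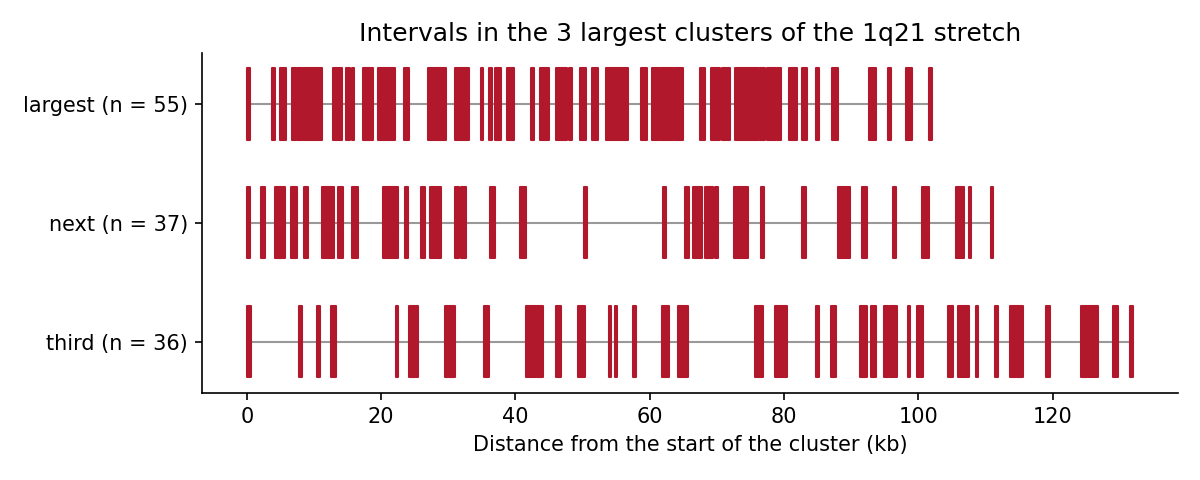
Map of the 3 largest clusters of the 1q21 stretch, each drawn from its own start (horizontal axis, kb). Red blocks are intervals drawn to scale and grey lines are the ground between them; the largest cluster packs 55 intervals into 102 kb and the other clusters hold 37 in 111 kb and 36 in 132 kb.

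Members were wider than intervals of the comparison parts. Their median width was 708 bp (quartiles 478 and 995 bp, range 195 to 2536 bp), against 543 bp from 150 Mb on (quartiles 393 and 748 bp) and 445 bp on the short arm (quartiles 332 and 659 bp), ratios of 1.30 and 1.59. The median over the 22 autosomes and chromosome X was 586 bp. In the dense run of 256 intervals just below the lower limit it was 778.5 bp, above that of the stretch. Intervals of 1 kb or more made up 59 of 242 members (24.4%), against 59 of 570 from 150 Mb on (10.4%) and 28 of 269 on the short arm (10.4%). Over the 22 autosomes and chromosome X this share was 18.2%. At 2 kb or more there were 5 members (2.07%), against 4 (0.702%) and 5 (1.86%), a share below the 2.91% over the 22 autosomes and chromosome X. The window medians ranged from 406 to 693 bp in 19 windows from 150 Mb on, all below the stretch. In the 17 short-arm windows with at least 5 intervals they ranged from 292 to 813 bp, and 1 of them lay above the stretch.

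Width went with clustering in all parts. Members in clusters of 3 or more had a median of 719 bp, against 651 bp from 150 Mb on and 730 bp on the short arm, and 707 bp over the 22 autosomes and chromosome X. Members with no neighbour had a median of 533 bp, against 523 bp from 150 Mb on and 393 bp on the short arm, and 514 bp over the 22 autosomes and chromosome X. Like with like, the stretch thus differed less from chromosome 1 beyond 150 Mb (ratios of 1.11 and 1.02) than with all intervals pooled (1.30). Clustered members were slightly narrower than clustered short-arm intervals (ratio 0.986), while members with no neighbour were wider (1.35).

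**Figure D5:**
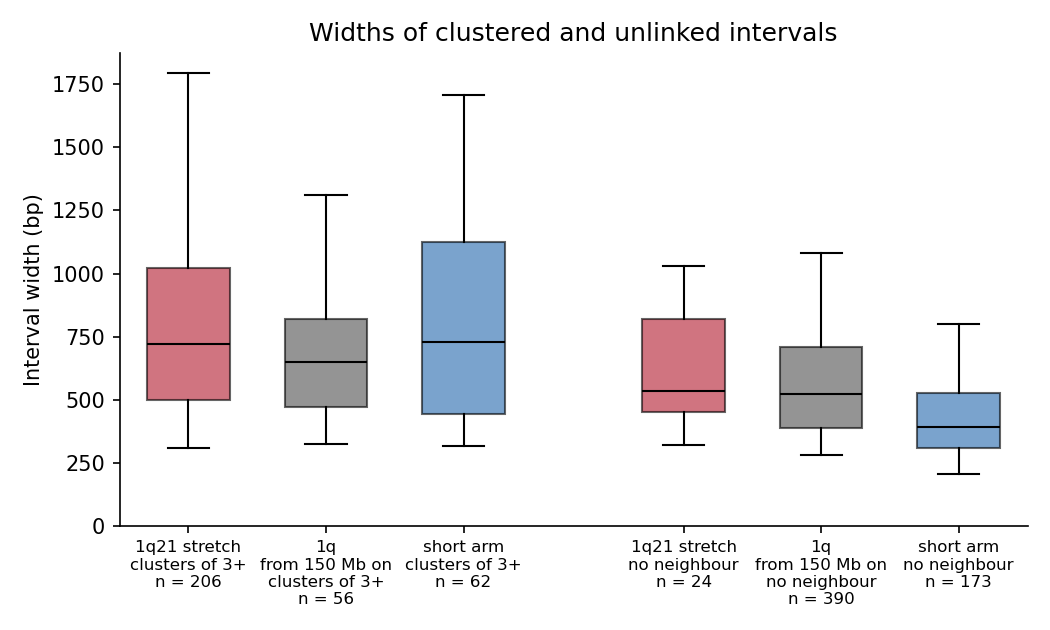
Interval width in bp (vertical axis) for intervals in clusters of 3 or more (left) and with no neighbour within 12.5 kb (right), in the 1q21 stretch, chromosome 1 from 150 Mb on and the short arm. Boxes are quartiles with the median, whiskers the 5th and 95th percentiles; clustered medians are 719, 651 and 730 bp, and those without a neighbour 533, 523 and 393 bp.

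The 10 widest members ranged from 1814 to 2536 bp and made up 10.8% of the covered bases. Of these, 7 lay in the lower end. The widest was chr1:145291095-145293631 (2536 bp) and the next chr1:145208471-145210951 (2480 bp), both in the cluster of 36. These 2 lay 82.6 kb apart. The widest followed an interval of 614 bp after a gap of 4569 bp and preceded one of 739 bp after 2205 bp. The second followed an interval of 726 bp after 5584 bp and preceded one of 714 bp after 1939 bp. Only the widths of the following intervals were alike within the tolerance of 50 bp used below. The preceding widths and both gaps were not. The median width in this cluster was 724 bp, and the third widest member had neighbours of 835 and 470 bp. These surroundings were compared after the values were seen.

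The next 3 in width lay in the upper part, chr1:148863661-148865943 (2282 bp), chr1:148551225-148553410 (2185 bp) and chr1:149287154-149289234 (2080 bp), each in a different cluster. The remaining 5 were chr1:145015092-145017073 (1981 bp), chr1:145280461-145282408 (1947 bp), chr1:145058412-145060290 (1878 bp), chr1:145109689-145111537 (1848 bp) and chr1:145045722-145047536 (1814 bp). The narrowest member was chr1:147917049-147917244 (195 bp). The widest interval on the 22 autosomes and chromosome X measured 32214 bp.

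Repeated layouts were looked for by position, taking each pair of neighbours with its 2 widths and its gap. Within a tolerance of 50 bp on all 3 lengths, 12 of 241 neighbour pairs in the stretch (4.98%) had a counterpart elsewhere in the stretch, in the same or mirrored order. From 150 Mb on there were 2 of 569 (0.351%) and on the short arm 5 of 268 (1.87%). Each match counts for both of its pairs. The stretch held 4 matches in the same order and 2 mirrored, against 1 mirrored match from 150 Mb on and 3 on the short arm. Per 100000 possible matches this is 20.7, against 0.619 and 8.39, so all these rates rest on few matches. With neighbours at least 1 kb apart, 6 of 167 pairs (3.59%) recurred, against 2 of 549 (0.364%) and 2 of 246 (0.813%). These are 3 matches in the stretch, against 1 and 1. Short gaps match more easily than long ones, and the stretch has more of them; how much of the difference this makes was not tested.

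The matching pairs joined places within the lower end, within the upper part and across the stretch. The pair starting at 145001373 (1069 and 296 bp wide, 70 bp apart) matched that starting at 148847624 (1075 and 303 bp, 104 bp apart) in the same order, 3846 kb away. The pair starting at 148519710 (519 and 1023 bp, 10935 bp apart) matched that at 149859501 (546 and 1029 bp, 10964 bp apart). In mirrored order, the pair at 145251650 (455 and 708 bp, 1840 bp apart) matched that at 145295836 (739 and 494 bp, 1809 bp apart), 44.2 kb away. Whether the matched places hold the same sequence could not be read from the list.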

How the data were processed

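Per the submitters' processing notes, SEACR and HOMER were used with build hg19; not given in the sources used here are versions, parameters, the aligner, the treatment of reads that match several places and the rule for a common peak. The authors deposited 1 list with 3 columns, chromosome, start and end in bp, with no score. It has 0 duplicated and 0 overlapping rows. Whether starts count from 0 or 1 is not stated; widths are end minus start. Genome-wide values use 21139 intervals, on chromosome X and the 22 autosomes. Each interval was placed by its start. Density is the count divided by the length between the limits (from 150 Mb on, up to the end of the last interval).

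Analyses used scipy 1.17.1, numpy 2.4.6, matplotlib 3.10.9 and pandas 2.3.3 in Python 3.11.15, and cluster, merge and repeat steps were tested on simulated intervals. The 10 widest, the 5 largest clusters, the 5 longest gaps, the narrowest member and the 2 intervals on each side of each limit are named by rule. The members and settings were chosen with earlier results of these data known. The labels do not say whether the libraries came from separate cultures. Alternatives merged close intervals, kept wide ones, changed linking distance, denominators and limits, or left out the largest cluster.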

Additional observations from a re-analysis of the deposited data

How the results depend on the processing

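Of 55 recomputed values, 41 stayed within 1.5 times of the reported value or, for shares, within its binomial interval, and 14 moved further. That interval treats intervals as independent, so it served only as a yardstick here and measures no spread. No ratio changed direction, and shares and counts have no direction to change. For density and covered bases the direction followed from limits drawn on ground known to be dense. Starting the stretch 0.5 Mb later left 123 intervals, ratios of density of 4.66 and 12.03 and of covered bases of 5.65 and 15.8 over chromosome 1 from 150 Mb on and the short arm, and 72.4% in clusters, since this leaves out the dense lower end. Counting only 100 kb bins that hold an interval gave density ratios of 3.89 and 4.24. Among intervals at or above the median width over the 22 autosomes and chromosome X, the density ratio over the short arm was 41.2. The share in clusters in the stretch was 77.4% after merging intervals within 1 kb and 74.8% with a linking distance of 5 kb. From 150 Mb on it was 4.74% with 5 kb and 20.7% with 25 kb, and on the short arm 17.8% after merging. Width ratios stayed within 1.5 times under all their alternatives, but that margin is wider than the reported ratio of 1.30 itself. It is therefore a loose yardstick for width. Among intervals at or above the median width, a subset chosen on width, the width ratios were 1.20 from 150 Mb on and 1.13 for the short arm. The reported ratios were 1.30 and 1.59. Leaving out the largest cluster of each part, for densities, covered bases and shares in clusters, the shifted windows and the 1 kb minimum gap for repeats were added after seeing the data. With a tolerance of 100 bp, also added, 20.7% of neighbour pairs in the stretch recurred, against 2.99% and 4.10%. Leaving out a library was not possible on a pooled list. No paired analysis was possible because the list carries no values per library. Alternatives on motifs and sequence copies were not run without an hg19 sequence. As the depth is unknown, ground without an interval may still be bound.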
